A study of Mus musculus with 35 samples.

Results

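The levels of 33 genes of cholesterol synthesis and transport were followed in mouse acute myeloid leukemia cells, out of 55487 genes in the count tables. The genes were chosen by name for their known roles, with earlier results of these data known. All 33 were found by matching Ensembl identifiers to mouse gene symbols. They comprise 8 enzymes of the mevalonate pathway, 11 enzymes that act from squalene to cholesterol, 5 regulators of the SREBP transcription factors, 4 genes that move or store sterols, and 5 genes of the LXR receptors and their export targets. The 2 enzyme lists together are called the 19 synthesis enzymes.

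Cholesterol is made from acetyl-CoA through mevalonate, farnesyl diphosphate and squalene. When sterols are scarce in the endoplasmic reticulum, SCAP carries the SREBP precursors to the Golgi, where they are cleaved into active transcription factors that switch on the synthesis enzymes, and INSIG proteins hold SCAP back when sterols are plentiful. Oxysterols, which form when cells hold much cholesterol, activate the LXR receptors, and these switch on the exporters Abca1 and Abcg1 and Mylip, a ubiquitin ligase for lipoprotein receptors. Myeloid cells and macrophages use both arms.

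The cells came from a leukemia driven by the MLL-AF9 fusion oncogene. They carried GFP together with a control guide of scrambled sequence (sgScramble) or a guide that targets Ogfod1 (sgOgfod1), a prolyl hydroxylase of a ribosomal protein. They had been expanded from the cells of 1 terminally ill mouse, so all recipients hold 1 leukemia. Male recipients aged 8 to 10 weeks received 1 M (mega) cells each, and viable GFP-positive cells were sorted from their marrow. Vehicle mice ate a standard amino acid (AA) diet and received PBS. Treated mice ate a diet free of branched-chain amino acids (BCAA) and received 5+3 chemotherapy, which was 100 mg/kg of cytarabine daily over 5 days with 3 mg/kg of doxorubicin added on the first 3 of them. No group had the diet or the drugs alone, so the effects of diet and drugs cannot be told apart, and both together are called treatment below. From 20 µl of lysate per mouse, 2 µl went to RNA-seq by Smart-seq2, a full-length mRNA protocol, and the rest was used for ribosome footprints. RNA was read in 5 sgScramble and 5 sgOgfod1 mice under vehicle and in 7 sgScramble and 6 sgOgfod1 mice under treatment. Footprints were read in 3 and 3 of the vehicle and 4 and 2 of the treated mice, respectively.

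RNA libraries held 31.9 to 142.7 M counts and footprint libraries 5.71 to 14.6 M. Levels are given as CPM, the counts of a gene per 1 M counts of its scaled library. The summed RNA level of 10 leukemia markers was 3084 to 3460 CPM (vehicle sgScramble), 3036 to 4257 CPM (vehicle sgOgfod1), 2991 to 4751 CPM (treated sgScramble) and 2932 to 4570 CPM (treated sgOgfod1), and no marker of the list was at 0 throughout a group. All treated sgScramble libraries but replicate 4 lay above the highest vehicle sgScramble sum. In footprints the sums were 1332 to 1479, 1449 to 2089, 1681 to 2254 and 1307 to 1788 CPM in that order of groups, and treated and vehicle sgScramble did not overlap. Of these markers 2 rose and 1 fell in RNA, and 2 rose and 3 fell in footprints, with treatment in sgScramble cells. Ogfod1 footprints were lower in sgOgfod1 cells by a log2 fold change of -2.67 under vehicle (adjusted p = 2.68e-05) and -2.77 under treatment (adjusted p = 8.99e-05). Its RNA was lower under treatment by -1.24 (adjusted p = 0.00608) and gave -1.07 under vehicle (adjusted p = 0.0846). Treated sgScramble replicate 4 and treated sgOgfod1 replicate 3 stood apart in RNA. The sum of 12 macrophage markers in RNA was 572 to 762 CPM in vehicle sgScramble and 484 to 633 CPM in vehicle sgOgfod1 mice, against 632 to 5228 CPM (median 963) in treated sgScramble and 591 to 1712 CPM (median 1062) in treated sgOgfod1 mice, and the sum of 10 neutrophil markers was 6360 to 12341, 6529 to 16378, 14571 to 52175 and 17415 to 80587 CPM in that order of groups. Of the neutrophil markers 8 of 10 rose in RNA and 7 of 10 in footprints with treatment in sgScramble cells, and 7 and 3 in sgOgfod1 cells. The RNA sum of 5 B cell markers was 103 to 159, 69.6 to 186, 33.8 to 84 and 23.2 to 98.5 CPM in the same order. The B cell markers went opposite ways in RNA with treatment in sgScramble cells, where Ighm fell (-2.36) and Cd79a rose (1.96). In sgOgfod1 cells Ighm fell (-1.86). The RNA sum of 4 megakaryocyte markers was 3.46 to 6.33, 2.06 to 6.33, 11.6 to 23.7 and 2.21 to 48.3 CPM. Of these, Pf4 and Ppbp rose in RNA in both genotypes. The part of these marker changes in the results below was not tested. In these bulk samples, fewer cells of a type and less RNA per cell cannot be told apart. The library numbers in the labels run from 1 to 10 in vehicle and from 11 up in treated mice, so library number and treatment cannot be told apart, and what the number marks is not given in the sources used here.

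Promoter sequences are shown for 4 members called in the same direction in both assays in sgScramble cells. They carry or lack the letters that SREBP and its partner factors are known to bind. RefSeq tables for GRCm38.p6 held 36 promoters of 27 of the 33 members, including 19 promoters of 16 synthesis enzymes. None was held for Sqle, Fdps, Fdft1, Stard4, Abcg1 and Npc1. Sqle, Fdps and Stard4 also fell in both assays in sgScramble cells, and their promoters could not be searched. Windows are the 250 bases before the start site, 5′ to 3′, shortened where the GENCODE annotation places an exon. Capitals mark TCACNCCAC, the classical sterol regulatory element, a shorter pattern TCACCNCA, and CCAAT, the box bound by NF-Y. All were searched on either strand (CCAAT then reads ATTGG). TCACCNCA has its free base N at a different position, so a match to it need not be part of a TCACNCCAC. Hmgcs1 lies at chr13:119690101-119690350 on the plus strand, Cyp51 at chr5:4104747-4104947 on the minus strand, Srebf2 at chr15:82147019-82147180 on the plus strand and Abca1 at chr4:53159896-53160145 on the minus strand.
Hmgcs1: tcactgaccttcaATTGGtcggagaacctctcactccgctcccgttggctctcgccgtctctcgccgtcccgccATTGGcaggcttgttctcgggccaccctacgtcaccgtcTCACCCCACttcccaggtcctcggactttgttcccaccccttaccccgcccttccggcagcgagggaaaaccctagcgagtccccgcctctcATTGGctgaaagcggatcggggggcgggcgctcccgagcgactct
Cyp51: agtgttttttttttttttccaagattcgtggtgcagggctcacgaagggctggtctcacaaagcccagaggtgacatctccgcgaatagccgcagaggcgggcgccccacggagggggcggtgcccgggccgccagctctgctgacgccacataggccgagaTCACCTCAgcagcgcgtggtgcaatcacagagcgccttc
Srebf2: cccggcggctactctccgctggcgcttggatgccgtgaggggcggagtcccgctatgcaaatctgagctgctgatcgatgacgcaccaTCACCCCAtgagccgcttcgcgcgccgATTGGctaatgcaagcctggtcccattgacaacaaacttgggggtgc
Abca1: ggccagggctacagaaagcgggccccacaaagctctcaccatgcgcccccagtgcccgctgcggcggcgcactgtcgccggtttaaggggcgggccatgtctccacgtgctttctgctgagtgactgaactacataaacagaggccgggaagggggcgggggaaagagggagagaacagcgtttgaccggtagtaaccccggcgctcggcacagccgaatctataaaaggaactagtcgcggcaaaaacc
The element TCACNCCAC was found in 1 of the 19 synthesis promoters, that of Hmgcs1 at 137 bases before the start, and in 1.05% of all 32851 promoters of the same length. The shorter TCACCNCA was added after these sequences were seen, so its count among them is no test. It was found in 3 of 19, those of Hmgcs1, Cyp51 (88 bases before the start) and Hsd17b7, against 3.61% of all promoters. In Hmgcs1 it overlaps TCACNCCAC, while in Cyp51 and Hsd17b7 it reads TCACCTCA, which TCACNCCAC does not cover. TCACCNCA also stood 162 bases before the start of Srebf2. CCAAT was found in 15 of 19 against 33.8% of all, and the GC box GGGCGG in 15 of 19 against 32.7%. Among the 17 promoters of the other members, CCAAT was found in 8 and the GC box in 10. The Abca1 window held none of the capitalised motifs. A match is a description of letters and not a binding site, and a window without one shows only that these letters are not in it.

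In sgScramble leukemia, treatment lowered the RNA of several synthesis enzymes and raised that of LXR receptor and export genes. Of the 33 members, 11 passed an adjusted p under 0.05 in edgeR's quasi-likelihood test, 7 lower and 4 higher. Of all 21474 genes tested 12.9% passed, 8.6% higher and 4.34% lower. Among protein-coding genes 11.1% were higher and 5.46% lower, so the number of higher calls among all members lay near the protein-coding share. For 6 of the 33 every treated library lay below every vehicle library and for 3 above, where 6.35% and 5.94% of all genes did so. Among the 19 synthesis enzymes 5 fell and 0 rose, with a median log2 fold change of -0.26 beside -0.01 over all genes tested. Of the 8 mevalonate enzymes 2 fell (median -0.31) and of the 11 later enzymes 3 fell (median -0.26). The 5 LXR genes had a median of 0.91, and 4 of them rose. Without vehicle sgScramble replicate 1, 2, 4 or 5 the count of members called was 7 in place of 11. The log2 fold changes of every member in both assays and genotypes are set side by side in the plot of member fold changes.

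**Figure D1:**
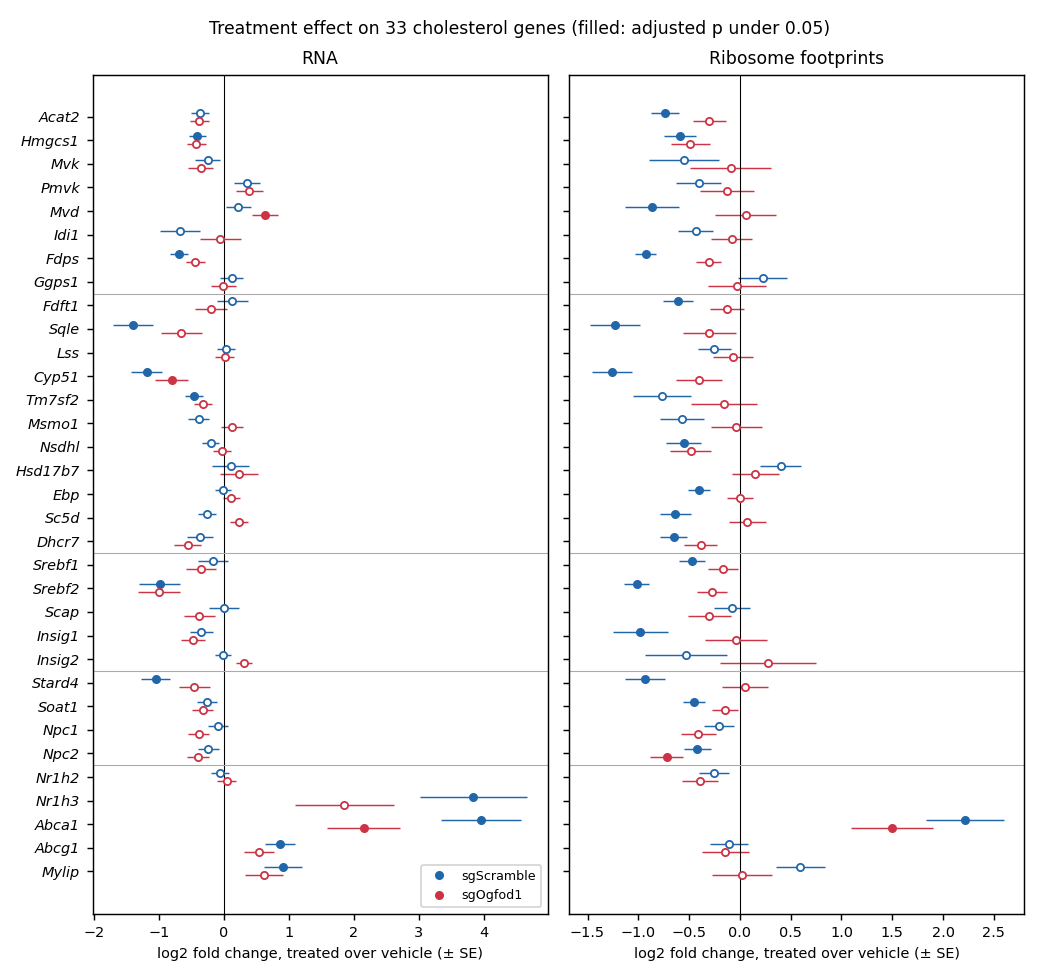
Log2 fold change with treatment (x axis, error bars are the standard error) for each of the 33 members (y axis, grouped by role) in RNA and in ribosome footprints, for sgScramble and sgOgfod1 leukemia. Footprints of 17 of the 19 synthesis enzymes lie below 0 in sgScramble cells, and Nr1h3, Abca1, Abcg1 and Mylip lie above 0 in RNA.

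Sqle, squalene epoxidase, showed the largest fall of a synthesis enzyme in RNA. Its RNA was 57.9, 64.6, 39.5, 47.9 and 48.3 CPM in vehicle sgScramble replicates 1 to 5, and 11.3, 21.5 and 24 CPM as the lowest, median and highest of the 7 treated sgScramble mice. Every treated library lay below every vehicle library. The log2 fold change was -1.40 ± 0.30 (SE, adjusted p = 0.00343). Cyp51, the lanosterol demethylase, had 53, 67.3, 44.5, 47.3 and 44.9 CPM under vehicle and 8.34, 24.6 and 30.7 CPM (lowest, median, highest) under treatment, again without overlap, with a log2 fold change of -1.19 ± 0.24 (adjusted p = 0.00237). Its lowest value was that of replicate 4, which stood apart. Fdps makes farnesyl diphosphate, the last intermediate shared by sterols and protein prenylation. Its RNA was 151, 138, 95.2, 117 and 97 CPM under vehicle and 63.7, 75.1 and 89.4 CPM (lowest, median, highest) under treatment. The ranges did not overlap, and the log2 fold change was -0.69 ± 0.14 (adjusted p = 0.00199). Sqle, Cyp51 and Fdps passed in each of the 23 fits that left out 1 library.

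Hmgcs1, the cytosolic HMG-CoA synthase at the entry of the pathway, had 41, 42.3, 32.4, 38.1 and 36.4 CPM under vehicle and 24.4, 26.5 and 37.7 CPM (lowest, median, highest) under treatment. The ranges met through treated replicate 4 at 37.7 CPM. Its log2 fold change of -0.41 ± 0.13 just passed (adjusted p = 0.0462), and it passed in 9 of the 23 fits that left out 1 library. Tm7sf2, a sterol reductase, had 15.2, 14.1, 13.3, 13.9 and 13.9 CPM under vehicle and 7.86, 10.4 and 13 CPM (lowest, median, highest) under treatment, with no overlap and a log2 fold change of -0.46 ± 0.14 (adjusted p = 0.0287). The other 14 synthesis enzymes did not pass. Their log2 values ran from -0.68 for Idi1 (adjusted p = 0.152), the isopentenyl diphosphate isomerase, to 0.35 for Pmvk (adjusted p = 0.262), the phosphomevalonate kinase.

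In sgScramble cells more members passed as lower in footprints than in RNA. The assays differed in the mice read and in the spread between mice, so these counts are not on equal terms. Of the 32 members tested, 17 fell and 1 rose, where 15.6% of all 18290 genes passed (8.12% higher, 7.44% lower). Among protein-coding genes 6.23% were higher and 10.3% lower. Of the 19 synthesis enzymes 11 fell and 0 rose, and 17 had a log2 value below 0, with a median of -0.59 beside -0.01 over all genes tested. The fall covered 4 of the 8 mevalonate enzymes (median -0.57) and 7 of the 11 later enzymes (median -0.61). For 18 of the 33 members every treated library lay below every vehicle library, and for 2 every one lay above, where 16.1% and 15.1% of all genes did so. Small nuclear RNAs took 5.12 to 9.03% of footprint counts in treated sgScramble libraries and 1.40 to 3.67% in the others, and their part in the result was not tested. Without vehicle sgScramble replicate 2 the count of members called was 8 in place of 18.

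**Figure D2:**
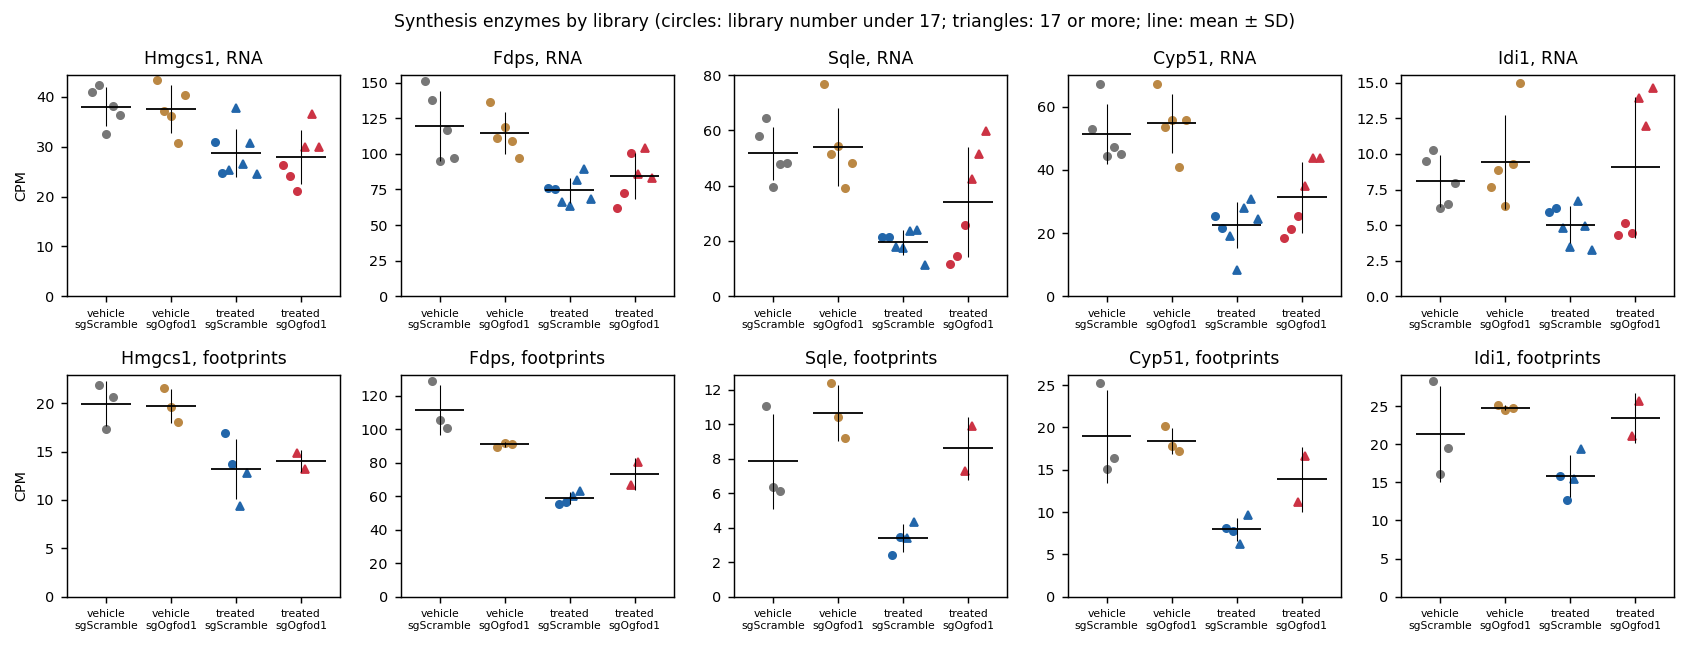
RNA (top) and footprint (bottom) levels in CPM for Hmgcs1, Fdps, Sqle, Cyp51 and Idi1, 1 symbol per mouse, with the mean and SD of each of the 4 groups as a line and bar. Circles are library numbers under 17 and triangles 17 or more, and treated sgScramble footprints of Sqle, at 2.39 to 4.34 CPM, lie below all other groups.

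Fdps footprints were 129, 105 and 101 CPM in vehicle sgScramble replicates 2, 3 and 5 and 55.5, 56.5, 60.1 and 63.2 CPM in treated sgScramble replicates 1, 2, 3 and 5. The groups were far from overlap, and the log2 fold change was -0.93 ± 0.10 (adjusted p = 8.45e-05). Cyp51 footprints were 25.3, 15.1 and 16.4 CPM under vehicle and 8.16, 7.75, 6.18 and 9.63 CPM under treatment, a log2 fold change of -1.26 ± 0.20 (adjusted p = 0.000839). Vehicle replicate 2 was the highest of the group. Sqle footprints were 11, 6.37 and 6.15 CPM under vehicle and 2.39, 3.46, 3.39 and 4.34 CPM under treatment, without overlap and with a log2 fold change of -1.23 ± 0.25 (adjusted p = 0.00373). Acat2, the cytosolic acetyl-CoA acetyltransferase that makes acetoacetyl-CoA, had footprints of 12.5, 12.1 and 9.85 CPM under vehicle and 7.08, 7.03, 7.21 and 6.24 CPM under treatment. The footprint log2 fold change was -0.74 ± 0.14 (adjusted p = 0.00305), while its RNA value was -0.37 ± 0.14 (adjusted p = 0.086). These genes and Dhcr7 passed in each of the 12 fits that left out 1 library.

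Hmgcs1 footprints were 21.9, 17.4 and 20.7 CPM under vehicle and 17, 13.7, 9.42 and 12.8 CPM under treatment, and the groups did not overlap by a narrow margin (-0.59 ± 0.16, adjusted p = 0.021). Mvd, the decarboxylase that makes isopentenyl diphosphate, had 4.88, 3.37 and 3.18 CPM and then 1.63, 1.79, 2.06 and 2.98 CPM (-0.86 ± 0.26, adjusted p = 0.0353). It passed in 7 of the 12 fits that left out 1 library. Dhcr7, the reductase of the last step, had 23.7, 23.1 and 19.8 CPM and then 16, 13.8, 15.2 and 11.4 CPM (-0.65 ± 0.14, adjusted p = 0.00473). Sc5d, a desaturase of the late pathway, had 20.6, 14.1 and 17.2 CPM and then 11.9, 10.2, 9.57 and 12.9 CPM (-0.64 ± 0.15, adjusted p = 0.0103). Fdft1, the squalene synthase at the branch from farnesyl diphosphate to sterols, had 15.7, 11.5 and 13.5 CPM and then 8.93, 7.86, 9.42 and 9.5 CPM (-0.61 ± 0.14, adjusted p = 0.00969). In RNA the same gene gave 0.13 (adjusted p = 0.788). Nsdhl (-0.55, adjusted p = 0.0346) and Ebp (-0.40, adjusted p = 0.0176), which act between lanosterol and cholesterol, also fell. Nsdhl passed in 6 of the 12 fits that left out 1 library, and not by DESeq2, with the replicate block, with a term for library number or with a coding length offset. The 8 synthesis enzymes that did not pass in footprints were Mvk, Pmvk, Idi1, Ggps1, Lss, Tm7sf2, Msmo1 and Hsd17b7. Their log2 values ran from -0.77 for Tm7sf2 (adjusted p = 0.0779) to 0.40 for Hsd17b7 (adjusted p = 0.185).

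Of the members, 6 fell in both assays in sgScramble cells: Hmgcs1, Fdps, Sqle, Cyp51, Srebf2 and Stard4. They are 6 of the 7 that fell in RNA and 6 of the 17 that fell in footprints. Abca1 rose in both. Abundance per length also differed widely among the members in vehicle sgScramble mice. In RNA, Fdps was highest at 28.4 CPM per kb of exon, followed by Ebp at 28.1 and Soat1 at 23.3, and Abca1 was lowest at 0.0696. In footprints, Npc2 led with 132 CPM per kb of coding sequence, before Fdps with 106 and Ebp with 45.4, and Abca1 was lowest at 0.142.

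Among the regulators, Srebf2, which encodes the SREBP that mainly drives cholesterol genes, fell in both assays. Its RNA was 72.7, 70.4, 63.3, 78 and 60.9 CPM in vehicle sgScramble mice and 5.47, 36.4 and 55.7 CPM (lowest, median, highest) in treated sgScramble mice. No treated library reached the vehicle range, and replicate 4, which stood apart, was far below the others. The log2 fold change was -0.99 ± 0.31 (adjusted p = 0.0358), and the gene passed in 16 of the 23 fits that left out 1 library. Srebf2 footprints were 39.8, 34.9 and 35.3 CPM under vehicle and 18.2, 19.1, 15.5 and 19.8 CPM under treatment. The log2 fold change was -1.01 ± 0.12 (adjusted p = 0.000143), without overlap. Insig1, the sterol-induced anchor that is itself an SREBP target, had RNA of 18.2, 16.3, 12.9, 16.8 and 15.8 CPM under vehicle and 9.06, 11.9 and 15.9 CPM (lowest, median, highest) under treatment, with overlap and a log2 value of -0.35 (adjusted p = 0.223). Its footprints fell from 6.37, 5.37 and 4.03 CPM to 2.39, 2.5, 3.39 and 2.44 CPM (-0.98 ± 0.27, adjusted p = 0.0216). Insig2, the second anchor, had overlapping RNA ranges of 34.3 to 46.3 and 30.9 to 51.5 CPM (log2 -0.02) and footprints under 2 CPM in each library, and Scap gave 0.00 in RNA and -0.08 in footprints.

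Srebf1, which encodes SREBP-1 with its larger role in fatty acid synthesis, differed in footprints and not detectably in RNA. Its RNA was 41, 33.4, 37.1, 44.4 and 31 CPM under vehicle and 11.5, 30.8 and 53 CPM (lowest, median, highest) under treatment. The ranges overlapped, and the log2 value was -0.17 (adjusted p = 0.689). The treated RNA values were split, at 44.1 to 53 CPM in the 2 libraries numbered under 17 and 11.5 to 35.8 CPM in the others. Srebf1 footprints were 34.8, 32.4 and 28.6 CPM under vehicle and 26.5, 22.5, 22.1 and 21 CPM under treatment (-0.47 ± 0.13, adjusted p = 0.0186). The footprint call held in 10 of the 12 fits that left out 1 library, and not with a term for library number. Translation efficiency was tested as footprints relative to RNA in the 12 mice that had both libraries, and 1.31% of all 28606 genes tested passed in sgScramble cells. Srebf1 was the 1 member of 33 that passed, at -0.69 ± 0.15 (adjusted p = 0.0253). Its ratio of footprint to RNA CPM was 1.04, 0.873 and 0.923 in the vehicle sgScramble mice and 0.499, 0.511, 0.726 and 0.588 in the treated sgScramble mice. The values of 0.499 and 0.511 came from the 2 treated mice numbered under 17, whose Srebf1 RNA was high. The ratio was 0.69, 0.725 and 0.657 in vehicle and 0.658 and 0.843 in treated sgOgfod1 mice. Treated and vehicle sgScramble ratios did not overlap, while those of the sgOgfod1 mice did. The call was lost in 4 of the 12 fits that left out 1 library, with vehicle sgScramble replicates 2 and 5 and treated sgScramble replicates 1 and 2 as the libraries concerned. The median efficiency change over all members was -0.28 beside 0.00 over all genes tested, with 25 of 33 below 0. In the other efficiency comparisons 0 members passed by edgeR, for treatment in sgOgfod1 cells (0.0524% of all genes passed, 2 members with an unadjusted p under 0.05), for genotype under vehicle (0.0769%, 5 members) and under treatment (0.0664%, 3 members) and for the interaction (0, 3 members).

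**Figure D3:**
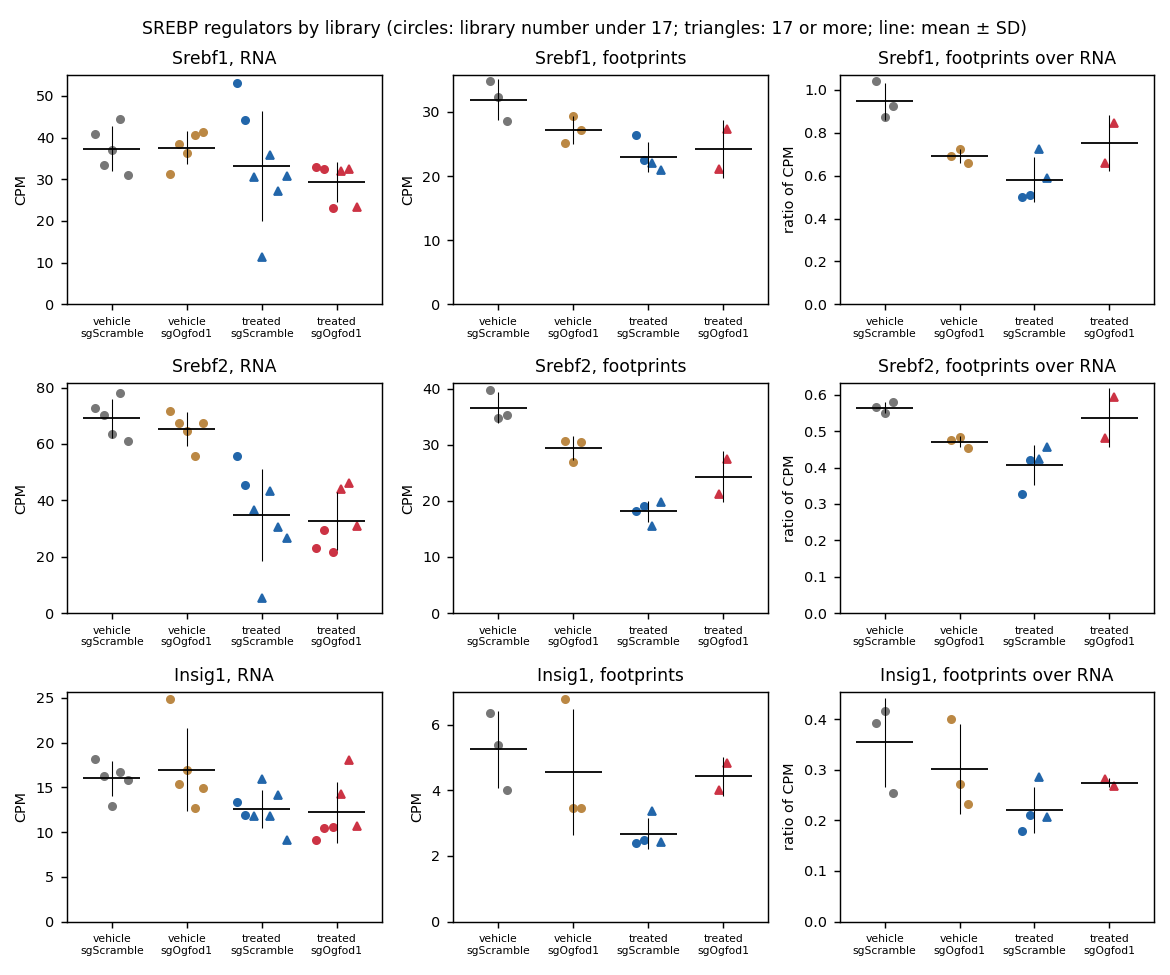
RNA CPM, footprint CPM and the footprint-to-RNA ratio for Srebf1, Srebf2 and Insig1, 1 symbol per mouse in the 4 groups, with the mean and SD as a line and bar; circles are library numbers under 17 and triangles 17 or more. The Srebf1 ratio of the treated sgScramble mice, 0.499 to 0.726, lies below that of the vehicle sgScramble mice, 0.873 to 1.04.

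Of the genes that move or store sterols, Stard4, a cytosolic sterol carrier, fell in both assays. Its RNA was 38.5, 55.6, 35.8, 41.9 and 41 CPM under vehicle and 7.78, 22.3 and 26.1 CPM (lowest, median, highest) under treatment, without overlap (-1.05 ± 0.23, adjusted p = 0.00347). Stard4 footprints were 14.3, 12.6 and 10.7 CPM and then 7.51, 6.08, 5.74 and 6.78 CPM (-0.94 ± 0.20, adjusted p = 0.0051). Soat1, which esterifies cholesterol for storage, fell in footprints, from 70, 62.4 and 62.9 CPM to 43.2, 46.6, 46.8 and 54.1 CPM (-0.45 ± 0.11, adjusted p = 0.00933), and gave -0.26 in RNA (adjusted p = 0.297). The lysosomal carrier Npc2 fell in footprints by 0.42 ± 0.13 (adjusted p = 0.0398), with ranges of 56 to 61.4 and 38.9 to 55.3 CPM. It passed in 6 of the 12 fits that left out 1 library, and not by DESeq2, among protein-coding genes only, with the replicate block or with a term for library number. Its membrane partner Npc1 did not pass in either assay.

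The LXR genes moved the other way in RNA. Abca1, the exporter that loads cholesterol onto apolipoprotein A-I, had 0.59, 0.228, 1.68, 0.498 and 0.616 CPM in vehicle sgScramble mice and 4.23, 6.57 and 30.1 CPM (lowest, median, highest) in treated sgScramble mice. The lowest treated library was above the highest vehicle library. The log2 fold change was 3.96 ± 0.61 (adjusted p = 0.000237). Abca1 footprints were 0.895, 0.625 and 1.38 CPM under vehicle and 3.05, 5.36, 5.59 and 4.48 CPM under treatment (2.22 ± 0.38, adjusted p = 0.00143), also without overlap. Nr1h3, which encodes LXR alpha, had RNA of 0.443, 0.543, 0.535, 0.777 and 0.405 CPM under vehicle and 1.25, 2 and 34.6 CPM (lowest, median, highest) under treatment. All treated libraries were higher, replicate 4 by far, and the log2 fold change was 3.84 ± 0.82 (adjusted p = 0.00335). Nr1h3 footprints, at 0.106 to 0.736 CPM over the 12 libraries, were too few to be tested. Its ubiquitous relative Nr1h2 did not pass in either assay. Abcg1, the exporter that hands cholesterol to lipoprotein particles, rose in RNA from 8.74, 8.84, 9.61, 8.98 and 8.32 CPM to 9.96, 15.3 and 22 CPM (lowest, median, highest; 0.86 ± 0.23, adjusted p = 0.0131). Its footprints were 17.7, 17.7 and 14 CPM under vehicle and 12.7, 21.8, 15.3 and 11.1 CPM under treatment, with overlap and a log2 value of -0.11 (adjusted p = 0.73). Mylip rose in RNA by 0.91 ± 0.29 (adjusted p = 0.038) from a range of 10.5 to 15.5 CPM to one of 15.3 to 32.5 CPM, and gave 0.60 in footprints (adjusted p = 0.103).

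Macrophage markers also rose with treatment, though not in step with these genes in every mouse. Of the 12 markers 11 rose in RNA and 8 of the 10 tested rose in footprints with treatment in sgScramble cells, and 8 and 4 rose, with 1 lower in footprints, in sgOgfod1 cells. No marker was at 0 in every library of a group, except Vsig4 in treated sgOgfod1 footprints. In footprints the sums were 160 to 177 and 120 to 148 CPM in sgScramble and sgOgfod1 cells under vehicle, and 184 to 303 and 153 to 210 CPM under treatment. The highest sums, 5228, 2967 and 3061 CPM, were in treated sgScramble replicates 4, 6 and 7, which also held the 3 highest Nr1h3 levels of that group, at 34.6, 7.97 and 5.97 CPM. The highest Abca1 levels, 20.3 and 30.1 CPM, were in replicates 6 and 7, while replicate 4 had 4.23 CPM. With only the mice that had a footprint library, which leaves out these 3 libraries, the log2 fold changes in sgScramble cells were 2.81 for Abca1 (adjusted p = 0.00445), 1.59 for Nr1h3 (adjusted p = 0.0113), 0.65 for Abcg1 (adjusted p = 0.0488) and 0.66 for Mylip (adjusted p = 0.180). Treated sgScramble replicates 1 and 5 had RNA sums of 632 and 747 CPM, within the vehicle sgScramble range of 572 to 762 CPM. Their Abca1 RNA was 5.07 and 4.28 CPM and their Nr1h3 RNA 1.25 and 1.41 CPM, above every vehicle sgScramble library. The part of macrophages in the LXR gene changes was not tested.

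**Figure D4:**
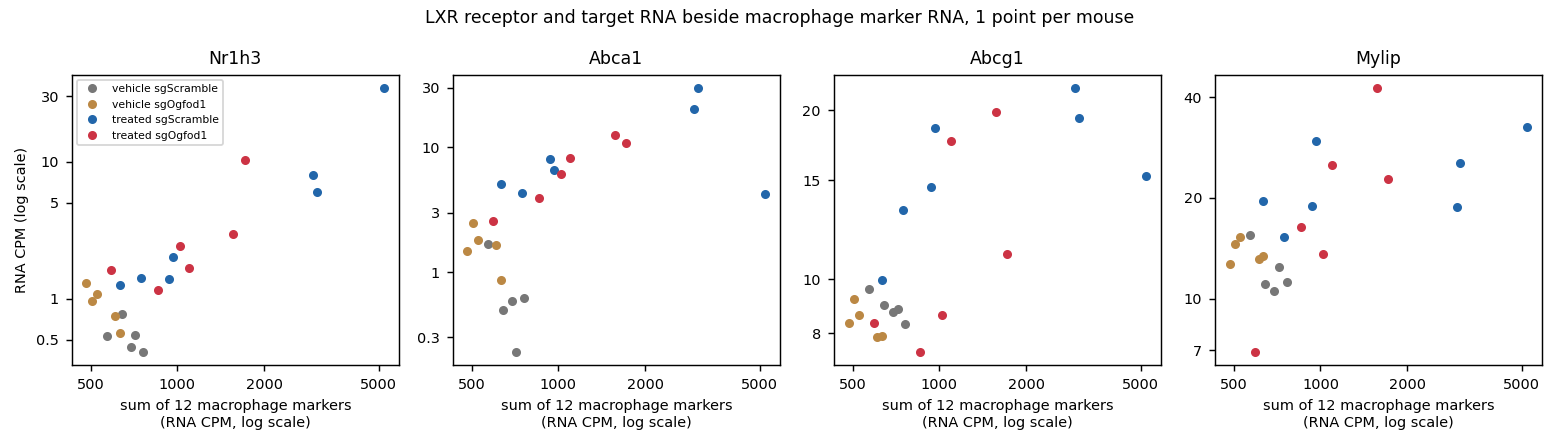
RNA CPM of Nr1h3, Abca1, Abcg1 and Mylip (y axis, log scale) against the summed RNA CPM of 12 macrophage markers (x axis, log scale), 1 point per mouse in the 4 groups. The treated sgScramble mice with sums of 2967 to 5228 CPM hold the 3 highest Nr1h3 levels of their group. The lowest treated Abca1 level is 2.56 CPM in treated sgOgfod1 replicate 5, beside 2.48 CPM as the highest vehicle level.

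In sgOgfod1 leukemia fewer members passed. In RNA 3 of 33 passed, where 9.87% of all genes did (5.69% higher, 4.18% lower). All treated libraries lay above all vehicle libraries for 1 member and below for 1, where 4.41% and 5.17% of all genes did so. Cyp51 fell, with 67.3, 53.8, 55.9, 40.8 and 55.8 CPM under vehicle and 18.5, 30.1 and 43.8 CPM (lowest, median, highest) under treatment (-0.81 ± 0.25, adjusted p = 0.0457), and the ranges overlapped. Mvd rose, from 7.41, 7.61, 7.3, 5.4 and 7.68 CPM to 7.04, 11 and 15.5 CPM (0.63 ± 0.20, adjusted p = 0.046). Its footprints gave 0.06 (adjusted p = 0.943) and came from 2 of the 6 treated mice, replicates 4 and 5, whose Mvd RNA was 10.1 and 7.85 CPM. With only the mice that had a footprint library, Mvd RNA gave 0.39 (adjusted p = 0.445). Abca1 rose from 0.868, 2.48, 1.66, 1.49 and 1.8 CPM to 2.56, 7.13 and 12.7 CPM without overlap (2.15 ± 0.57, adjusted p = 0.0175). Srebf2 gave -1.0 ± 0.32 in RNA, a value like that in sgScramble cells, with an adjusted p of 0.0505. The median over the 19 synthesis enzymes was -0.06 beside 0.00 over all genes tested. Of the fits that left out 1 library, that without vehicle sgOgfod1 replicate 1 called 0 members, and those without treated sgScramble replicate 4 or treated sgOgfod1 replicate 5 called 8. Those without vehicle sgScramble replicate 2, 3 or 4, vehicle sgOgfod1 replicate 2, 3 or 5, treated sgScramble replicate 2 or treated sgOgfod1 replicate 1 or 2 called 1.

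Footprints in sgOgfod1 cells gave 2 calls among 32 members, where 8.22% of all genes passed (4.65% higher, 3.56% lower), and 0 among the 19 synthesis enzymes. Of those enzymes 4 had an unadjusted p under 0.05, and DESeq2 also called 0. The median over the synthesis enzymes was -0.13, with 15 of 19 below 0. Fdps footprints were 89.6, 92.1 and 91.1 CPM in vehicle sgOgfod1 replicates 3, 4 and 5 and 66.7 and 80.3 CPM in treated sgOgfod1 replicates 4 and 5 (-0.31, adjusted p = 0.149). Both treated libraries lay below all vehicle ones, as they did for 9 of the 33 members, with 1 above, where 19.1% and 17.6% of all genes did so. Sqle had 12.4, 10.4 and 9.2 CPM and then 7.32 and 9.89 CPM, with overlap (-0.30, adjusted p = 0.539). Srebf2 footprints were 30.7, 26.9 and 30.6 CPM and then 21.2 and 27.5 CPM, with overlap (-0.28, adjusted p = 0.272). The 2 calls were Npc2, which fell from 53.9, 45 and 57.6 CPM to 27.9 and 35.8 CPM (-0.72 ± 0.16, adjusted p = 0.0128), and Abca1, which rose from 1.79, 2.48 and 0.741 CPM to 4.61 and 3.92 CPM (1.5 ± 0.41, adjusted p = 0.031). Leaving out a treated sgOgfod1 library leaves 1 in that group, which is then assumed to vary like the other groups. Without treated sgOgfod1 replicate 4 neither passed, and without treated sgOgfod1 replicate 5 or vehicle sgOgfod1 replicate 3 or 5 the count was 1.

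Whether treatment acted differently in the 2 genotypes was tested as the interaction, the treatment effect in sgOgfod1 minus that in sgScramble cells. No member passed in either assay by edgeR or DESeq2, and 0 and 0.0656% of all genes passed in RNA and in footprints by edgeR. In footprints 10 members had an unadjusted p under 0.05, of them 7 synthesis enzymes, and in RNA 3 members did. The footprint interaction was above 0 for 17 of 19 synthesis enzymes, with a median of 0.43 beside 0.00 over all genes tested. Fdps gave 0.62 ± 0.16 (adjusted p = 0.274), Srebf2 0.74 ± 0.19 (adjusted p = 0.267) and Sqle 0.93 ± 0.36 (adjusted p = 0.447). The fall in sgScramble cells and its smaller size in sgOgfod1 cells are therefore values side by side, and a difference between them was not detected after adjustment. Per library, the median over the 19 enzymes in footprints, on the log2 scale relative to the vehicle sgScramble mean, was -0.49, -0.63, -0.47 and -0.49 in treated sgScramble and -0.26 and -0.21 in treated sgOgfod1 mice. It was 0.21, -0.19 and -0.14 in vehicle sgScramble and 0.09, -0.21 and -0.05 in vehicle sgOgfod1 mice. Treated sgOgfod1 replicate 4 lay below the lowest vehicle median, that of vehicle sgOgfod1 replicate 4, and replicate 5 lay within the vehicle range. All 4 treated sgScramble medians lay below those of all other mice. In RNA the medians were -0.43 to -0.03 in treated sgScramble and -0.31 to 0.17 in treated sgOgfod1 mice, against -0.20 to 0.15 and -0.11 to 0.17 in vehicle mice, so the groups overlapped.

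**Figure D5:**
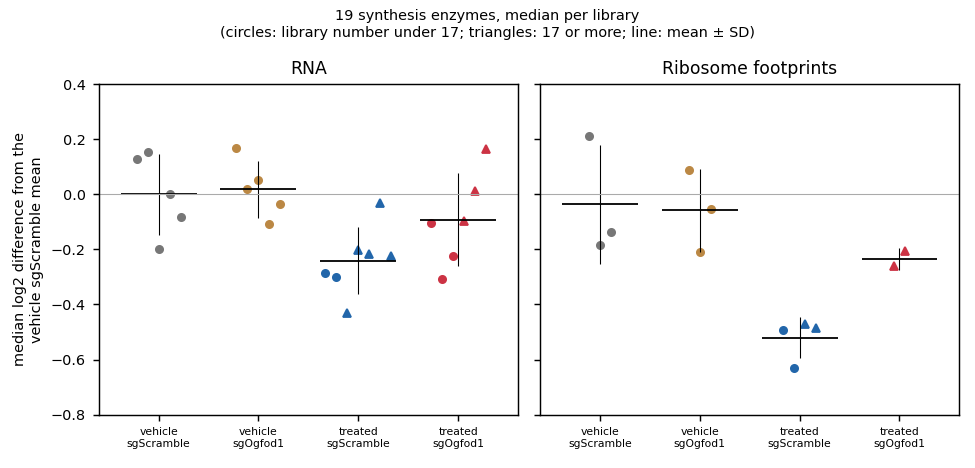
Median log2 level of the 19 synthesis enzymes per library relative to the vehicle sgScramble mean (y axis), in RNA and in footprints, 1 symbol per mouse in the 4 groups. In footprints the 4 treated sgScramble mice lie at -0.63 to -0.47 and the 2 treated sgOgfod1 mice at -0.26 and -0.21.

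Between genotypes, no member passed in RNA under vehicle or under treatment by edgeR or DESeq2, where 0.116% and 0.391% of all genes passed by edgeR, and 1 and 5 members had an unadjusted p under 0.05. In footprints no member passed under vehicle, where 1.81% of all genes did, 4 had an unadjusted p under 0.05 and DESeq2 called 0. All vehicle sgOgfod1 libraries lay below all vehicle sgScramble libraries for 6 of the 33 members and above for 0, where 13.1% and 13.4% of all genes did so. Under treatment 1.58% of all genes passed, and Sqle was the 1 member of 32 to pass. Its footprints were 2.39, 3.46, 3.39 and 4.34 CPM in the treated sgScramble mice but 7.32 and 9.89 CPM in the treated sgOgfod1 mice, without overlap (1.35 ± 0.27, adjusted p = 0.0176). Under vehicle the same contrast gave 0.42 (adjusted p = 0.374). Leaving out treated sgScramble replicate 3 or treated sgOgfod1 replicate 5 ended the call, the latter with 1 treated sgOgfod1 library left that is assumed to vary like the other groups, and with the treated libraries numbered 17 or more alone the value was 1.13 (adjusted p = 0.170). Cyp51, with 8.16, 7.75, 6.18 and 9.63 CPM against 11.1 and 16.6 CPM, had 0.80 ± 0.22 (adjusted p = 0.0851). For 13 of the 33 members both treated sgOgfod1 libraries lay above all treated sgScramble libraries, and for 2 below, where 11.3% and 11.4% of all genes did so.

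The treated sgOgfod1 mice were not uniform in RNA. The 3 libraries numbered 22 or more lay above the 3 numbered 15 or less for 7 of the 19 synthesis enzymes and below them for 1, Mvd, where 10.3% and 10.3% of all genes did so. Sqle RNA was 11.5, 14.4 and 25.8 CPM in the lower-numbered and 42.4, 51.4 and 59.7 CPM in the higher-numbered libraries. Idi1 RNA was 4.31, 5.18 and 4.42 CPM and then 13.9, 12 and 14.7 CPM. Stard4 RNA was 21.2, 21.5 and 18.8 CPM and then 42.8, 36.3 and 28.2 CPM. Abcg1 ran the other way, with 19.9, 17.6 and 11.1 CPM and then 7.4, 8.34 and 8.62 CPM. Of the 14 other members 4 were higher and 5 lower in the higher-numbered libraries. In treated sgScramble mice, 2 RNA libraries were numbered under 17 and 5 were numbered 17 or more. Mean Sqle RNA was 21.5 and 18.7 CPM in that order, Idi1 6.06 and 4.63, Stard4 23.2 and 19.4, and Abcg1 14.3 and 16.9 CPM. The ranges of these genes overlapped there, while Srebf2, at 50.5 and 28.4 CPM, did not overlap. Nor did Srebf1 (means of 48.6 and 27.1 CPM), Scap, Mvk and Tm7sf2, which were also lower in the higher-numbered libraries. Soat1 (144 and 209 CPM), Fdft1, Ggps1 and Npc1 were higher in them, again without overlap. The share of all genes without overlap was not counted for this group. Both treated sgOgfod1 footprint libraries are among the higher-numbered ones. With only the lower-numbered treated libraries, 16 members passed for treatment in sgOgfod1 cells, where 23.1% of all genes passed, among them Sqle at -1.65, Cyp51 at -1.33 and Srebf2 at -1.40. With only the higher-numbered ones 2 passed, where 4.06% of all genes did, Npc1 at -0.65 and Npc2 at -0.71. In that setting the genotype contrast under treatment in RNA called 4 members and 5.04% of all genes, with Idi1 at 1.55 and Sqle at 1.45 higher and Npc1 at -0.73 and Abcg1 at -1.05 lower in sgOgfod1 cells. The library number thus moved with RNA levels of the treated sgOgfod1 mice, on which the comparison of treated genotypes rests. The 1 footprint call in that comparison, Sqle, was lost with a term for library number and with only treated libraries numbered 17 or more. Beyond these fits, the part of library number in that comparison was not tested.

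Genes of neighbouring pathways, from lists that hold no member, moved unevenly. Of 10 fatty acid genes driven by SREBP, 2 fell and 2 rose in RNA with treatment in sgScramble cells. The desaturases Fads2 (-2.20 ± 0.54, adjusted p = 0.00874) and Fads1 (-0.61 ± 0.17, adjusted p = 0.0164) fell in RNA, and in footprints by 1.77 and 1.15. Scd1, another desaturase, had RNA of at most 0.035 CPM in vehicle sgScramble mice and of 0.271 to 16.4 CPM in treated sgScramble mice (fitted log2 fold change 8.15 ± 1.24, adjusted p = 0.000201). Its footprints, at 14.1 to 22 and 15.2 to 18.3 CPM in the same groups, are uncertain, since Scd1 has a close paralog in Scd2 and shared reads may be counted on it. In sgOgfod1 cells 3 of the 10 fell and 1 rose in RNA, and 0 of 9 passed in footprints, where 1 had an unadjusted p under 0.05. Of 8 genes of SREBP cleavage and sterol-linked degradation, 1 fell and 0 rose in RNA in sgScramble cells, namely Erlin1 (-0.66), and 1 fell in footprints, Mbtps1 (-0.59), the site-1 protease that cleaves SREBP precursors. Of 12 other sterol movement genes 2 rose and 1 fell in RNA, among them Soat2 (2.18 ± 0.41, adjusted p = 0.00105), a second cholesterol esterifying enzyme, which also rose in sgOgfod1 cells (2.23). In footprints 1 of the 10 tested rose and 5 fell, including the oxysterol-binding protein gene Osbp (-0.55). Of 10 genes that use isoprenoids outside sterols, 1 fell in RNA and 2 fell and 1 rose in footprints, with Dhdds, a subunit of the dolichol-making enzyme, lower in both (-0.42 and -0.69). Of 6 other LXR partners and targets 1 rose in RNA, Arl4c (1.81), and 2 fell in footprints, Smpdl3a (-0.83) and Rxrb (-0.61). Of the 2 oxysterol enzymes tested out of 4, Hsd3b7, which acts in bile acid synthesis, fell in both assays (-0.53 and -0.73).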

How the data were processed

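RNA was measured in 23 and ribosome footprints in 12 libraries, each from the leukemia cells of 1 mouse. The authors deposited unnormalized read counts per Ensembl gene. The submitters' processing notes name featureCounts, STAR, Bowtie2, SAMtools and cutadapt, and the builds GRCm38 and mm10. Tool versions, the strand setting and the rule for reads with several matches are not given in the sources used here, so reads of overlapping genes or near-identical copies may be counted with a member. Of 55487 genes 55227 were named through GENCODE vM21, which also gave positions and lengths. Promoter windows are from RefSeq.

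Counts were tested with edgeR 4.0.16 in R 4.3.3, with TMM scaling, filterByExpr and the robust quasi-likelihood test, over all genes of an assay, with 4 groups in 1 fit (19 residual degrees of freedom in RNA, 8 in footprints). P-values were adjusted by the Benjamini-Hochberg method over all genes tested, and an adjusted p under 0.05 was a call. All printed adjusted p-values come from these fits and are two-sided. Standard errors were derived from the quasi-likelihood statistic. Translation efficiency was the assay-by-group term over the 12 mice with both libraries, with mouse as a block and TMM within assay. CPM are on TMM-scaled library sizes, and list medians per library used a pseudocount of 1 CPM. DESeq2 1.42.0 was an alternative. The biological coefficient of variation came to 0.494 (RNA) and 0.156 (footprints). In RNA, at 31.9 to 142.7 M counts per library, counting error is small beside this spread, except for members at or under 1 CPM. In footprints, at 5.71 to 14.6 M counts per library, it is near or above this spread for members at a few CPM. Sqle and Mvd in treated sgScramble mice are examples.

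The labels name biological replicates, and no pair agreed within sampling noise (smallest chi-square per degree of freedom 19.6 over 56 RNA pairs and 6.84 over 13 footprint pairs). Replicate numbers do not pair mice across groups: deviations from the group means correlated by -0.63 to 0.46 over 31 same-numbered RNA pairs, 8 of them above 0.1, and by -0.09 to 0.10 over 11 footprint pairs. Data were simulated for treatment in sgScramble cells, with changes placed only in genes above the median count. Of 50 genes changed 2-fold, 41 were called in RNA (20863 genes run), 49 in footprints (17733 genes) and 6 in translation efficiency (13483 genes). Of 50 genes changed 1.5-fold, 13, 23 and 0 were called in that order. In this simulation a missing call thus said little at 1.5-fold in each assay, and at 2-fold in translation efficiency. Only 50 genes were changed per fold, while 2779 genes were called in RNA and 2847 in footprints in the data. Adjustment is stricter when few genes change, so the share called in the data may differ. Some members were called below 1.5-fold, such as Ebp footprints at -0.40. Comparisons other than treatment in sgScramble cells were not simulated.

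The members and lists were chosen with earlier results of these data known. All 33 members are accounted for. Values per library are given for members called in RNA or footprints, up to 4 per role group and comparison in order of p, and for 7 regulators and LXR genes whatever their p (Srebf1, Srebf2, Insig1, Insig2, Nr1h3, Abca1, Abcg1). Genes outside the members are named up to 3 per list with the smallest p. Alternatives were DESeq2, no filter, protein-coding genes only, a replicate block, a term for library number, a coding length offset and subsets of libraries.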

Additional observations from a re-analysis of the deposited data

Results flagged for a closer look

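In groups of 4 to 7 mice, 6 of 115 member-by-group sets of values had 1 mouse set far apart from the rest of its group, and chance flags about 1 in 20 such sets. Nr1h3 RNA stood apart in treated sgScramble replicate 4, at 34.6 CPM where the next mouse had 7.97 CPM, and in treated sgOgfod1 replicate 3, at 10.2 CPM where the next had 2.98 CPM. These are the same mice that stood apart over all genes. Abca1 RNA was 1.68 CPM in vehicle sgScramble replicate 3, above 0.616 CPM in the next. Insig1 footprints were 3.39 CPM in treated sgScramble replicate 3, above 2.50 CPM in the next and below the vehicle sgScramble mice. Dhcr7 RNA was 39.2 CPM in vehicle sgScramble replicate 4, above 35.6 CPM in the next, and Mvd RNA was 5.40 CPM in vehicle sgOgfod1 replicate 4, below 7.30 CPM in the next.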

How the results depend on the processing

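The 11 RNA calls for treatment in sgScramble cells became 7 with no filter on low counts, and 6 with only treated libraries numbered under 17, a setting chosen after seeing the data. They ranged from 7 to 12 when 1 library was left out. With the replicate number as a block they were 6. The 18 footprint calls ranged from 8 to 18 on leaving out a library, and were 15 with the replicate block and 15 by DESeq2. The 3 RNA calls for treatment in sgOgfod1 cells became 7 by DESeq2, 1 with no filter, 6 among protein-coding genes only, 7 with a term for library number, 6 with a coding length offset, 10 without the 2 libraries standing apart, 1 with only mice that had footprints and 16 with treated libraries numbered under 17, and ranged from 0 to 8 on leaving out a library. The 0 RNA calls between genotypes under treatment became 2 with only mice that had footprints, 1 with treated libraries numbered under 17 and 4 with those numbered 17 or more. The 2 footprint calls in sgOgfod1 cells became 1 with the replicate block and 0 with the library number term, and ranged from 0 to 2 on leaving out a library. The 1 footprint call between treated genotypes became 4 with no filter, and 0 with the replicate block, with the number term or with libraries numbered 17 or more, and ranged from 0 to 1. The 0 footprint interaction calls became 1 with no filter. The 1 efficiency call became 3 among protein-coding genes and ranged from 0 to 1. Where the settings change the samples or genes tested, that change is the setting itself, and otherwise the cause was not tested. The replicate block changed no other count of calls by over 1.5 times. With 2 treated sgOgfod1 footprint mice, depth and number limit what that group can show, and members under 1 CPM in footprints were not tested or are imprecise.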
